A study of Mus musculus with 12 samples.

Results

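The genes that encode the proteins of the cytosolic ribosome were followed in whole kidneys of Pod-TRECK mice. In these mice a diphtheria toxin receptor is placed on podocytes, the epithelial cells of the glomerular filter, so that the toxin injures that cell type; the promoter that drives the receptor is not given in the sources used here. All 4 groups were of this genotype: mice without toxin as controls, and mice whose kidneys were taken 5, 14 or 21 days after 100 ng of diphtheria toxin was injected intraperitoneally. Each group had 3 biological replicates, 12 libraries in all, made from total RNA after poly(A) selection. Age, sex and strain background were not given in the sources used here, and the controls were untreated rather than injected with a toxin-free solution. Genes were chosen by name alone: rows of the count table with the mouse symbols of large-subunit (Rpl) or small-subunit (Rps) proteins, a number and at most 1 further letter, together with Rplp0, Rplp1, Rplp2 and Rpsa. Of 56722 rows, 83 had such a name. The 79 that held at least 1000 counts over the 12 libraries were kept: 44 of the large subunit, 3 of its stalk and 32 of the small subunit. All 79 had enough counts to be tested. The 4 rows left out were the paralogs Rpl10l with 0 counts, Rpl39l with 7, Rpl32l with 226 and Rpl3l with 581. The lowest gene kept was Rps4l with 5814 counts.

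A cytosolic ribosome is built from a small subunit, which reads the mRNA, and a large subunit, which joins the amino acids, and each ribosomal protein is present in 1 copy apart from the paired stalk proteins. Their mRNAs are among the most abundant of a cell and belong to the 5′ terminal oligopyrimidine (TOP) class. TOP mRNAs start with a C and a run of pyrimidines, through which the kinase mTOR and the RNA-binding protein LARP1 control their translation. In kidney, as elsewhere, ribosome production accompanies growth and cell division. An mRNA level does not show how much of the mRNA is translated. In bulk tissue, a lower number of cells of a type and less RNA per cell cannot be told apart, and this holds for every level below.

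Libraries held 31023852 to 46420299 counts. Day-21 replicate 2 stood apart from its group on the first principal component of all genes, at -36.8 against 73.0 and 80.1 for replicates 1 and 3. The mitochondrial genome's transcripts made up 22.9 ± 0.684% of counts without toxin (SD, n = 3), then 19.1 ± 0.892, 9.22 ± 0.238 and 14.9 ± 5.42% on days 5, 14 and 21. The TMM factor, which multiplies a library total so that most genes keep 1 level, averaged 0.793 for controls and then 0.876, 1.31 and 1.11 on the 3 days. The factors were higher in groups with a lower mitochondrial share, and the main counts are given under more than 1 scaling for this reason. The 7 podocyte markers summed to 297 to 314 CPM (counts per 1000000) in controls, and to 90.3 to 109, 130 to 138 and 95.1 to 234 CPM on days 5, 14 and 21. Defining markers of kidney tubules were abundant in all groups, with the 10 proximal tubule markers summing to at least 2304 CPM.

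The genes differed widely in their level. Levels were divided by the gene length in bases given with the counts, which need not equal the length of the mRNA. Per kilobase of that length, averaged over the 12 libraries, TMM-scaled levels were highest for Rplp1 at 583 CPM. Rpl41 followed at 377 and Rplp0 at 375 CPM per kilobase. Without this division Rplp1 ranked 18 and Rplp0 ranked 1 by mean level, so the order depends on the length used. Rplp0, Rplp1 and Rplp2 form the stalk that recruits elongation factors to the ribosome, and Rpl41 encodes the smallest ribosomal protein. By each gene's own counts the lowest were Rps4l at 13.4, Rpl6l at 23.3 and Rpl17 at 24.7 CPM per kilobase. The value of Rpl17 leaves out rows named as its pseudogenes, described below. Before division by length it had 37.3 to 149 CPM on its own counts, and 365 to 703 CPM with those rows added. Rps4l and Rpl6l are named as paralogs of Rps4x and Rpl6. Large-subunit genes without the stalk held 54.9 to 55.8% of the family's counts in controls, and small-subunit genes held 38.7 to 39.4%. At day 14 the small-subunit share was 40.2 to 41.5% and did not overlap the controls. At day 21 it was 40.4 to 40.9%, and at day 5 it was 39.0 to 40.1%, which overlapped them.

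Promoters of the family are shown because its members moved together, for the most abundant gene (Rplp0), for members that lay high after toxin (Rpl12 and Rpl39) and for members that lay low (Rps27l and Rpl7a). These positions are by each gene's own counts, without the pseudogene rows described below. The sequences are from RefSeq on GRCm38.p6, a build other than that of the counts. Each runs 5′ to 3′ from 40 bases before to 20 bases after the annotated start. Capitals mark the longest run of C and T within 20 bases of that start, or the first of equal runs. In Rpl39 an equally long run further on is unmarked, and the marked run is cut at the edge of that range. The marked runs of Rpl39 and Rps27l end before the annotated start. They lie at chr5:115559427-115559486 on the plus strand, chr2:32961672-32961731 on the plus strand, chrX:37085203-37085262 on the minus strand, chr9:66946046-66946105 on the plus strand and chr2:26910767-26910826 on the plus strand, in the order printed.
Rplp0: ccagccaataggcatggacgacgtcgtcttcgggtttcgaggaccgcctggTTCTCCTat
Rpl12: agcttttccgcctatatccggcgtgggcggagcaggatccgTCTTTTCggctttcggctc
Rpl39: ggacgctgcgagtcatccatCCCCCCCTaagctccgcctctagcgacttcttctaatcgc
Rps27l: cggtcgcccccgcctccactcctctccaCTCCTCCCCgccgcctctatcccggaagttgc
Rpl7a: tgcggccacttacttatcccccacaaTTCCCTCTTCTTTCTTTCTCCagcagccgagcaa

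The marked run had 7 bases in Rplp0 and Rpl12, 8 in Rpl39, 9 in Rps27l and 21 in Rpl7a. Rps27l had 2 windows, and a window with the longest run was printed. The split by run length below likewise took each gene's longest run over its windows. Of the 79 genes, 57 had an entry in the promoter table, with 68 windows of 300 bases, against 32851 windows in all. A run of at least 8 pyrimidines near the start, read in the direction of the mRNA, was in 44.1% of the family's windows and in 16.0% of all windows. The core of the ETS family site, CGGAAG on either strand, was in 63.2% against 16.9%. The core of the YY1 site, AAGATGG on either strand, was in 16.2% against 6.34%, and TATAAA on either strand was in 8.82% against 13.6%. These matches describe letters in a window and not sites bound by a factor. By the length of the run, at day 14, 12 of 29 genes with a run of at least 8 were called higher with TMM scaling, and 9 of 28 with shorter runs, where 31.2% of all genes were. At day 21 these counts were 24 of 29 and 26 of 28, with 24.3% of all genes. The median log2 fold changes were 0.25 and 0.23 at day 14 and 0.49 and 0.45 at day 21. The difference between long and short runs was not tested.

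The summed mRNA of the 79 genes was higher in every toxin library than in every control, and by how much depended on the denominator. As a percentage of the library total it was 1.20, 1.23 and 1.26% in controls. At day 5 it was 1.57, 1.52 and 1.56%, and at day 14 it was 2.47, 2.44 and 2.49%. At day 21 the replicates spread widely, with 2.43, 1.67 and 3.23% in replicates 1, 2 and 3. The control mean was 1.23 ± 0.0308%, followed by 1.55 ± 0.0319, 2.47 ± 0.0277 and 2.44 ± 0.782% (SD, n = 3 each). They were thus 1.26, 2.01 and 1.99 times the control mean.

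With mitochondrial transcripts left out of the total, the control mean was 1.59 ± 0.0267% and the later means were 1.92 ± 0.0490, 2.72 ± 0.0344 and 2.84 ± 0.777% (SD, n = 3 each), or 1.20, 1.71 and 1.78 times the control. On TMM-scaled totals the controls held 1.50, 1.58 and 1.57%. Day 5 held 1.84, 1.73 and 1.75%, day 14 held 1.88, 1.86 and 1.90%, and day 21 held 2.05, 1.88 and 2.60%. The ratios to the control mean were then 1.14, 1.21 and 1.40. Under each of the 3 denominators controls were lowest and day 5 came next, without overlap with controls or day 14. Day 14 and day 21 overlapped under each denominator, since day-21 replicate 2 lay at or below the level of day 14 and replicate 3 lay above it.

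**Figure D1:**
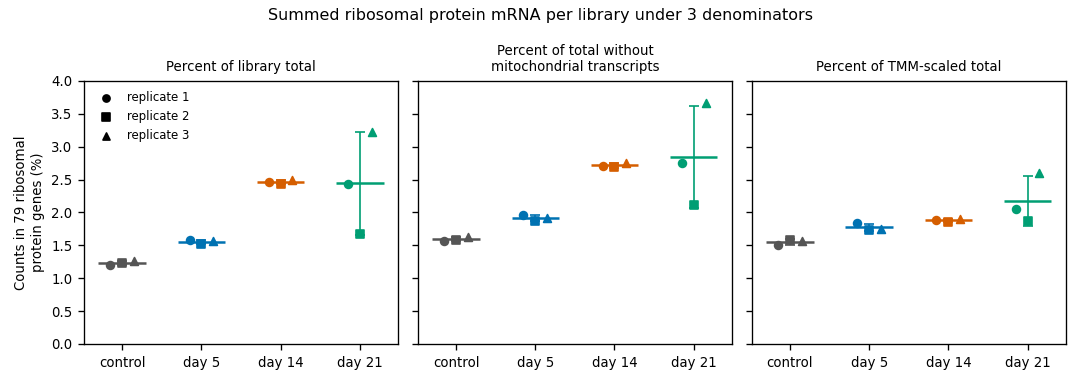
Percentage of counts (vertical axis) in the 79 ribosomal protein genes for each library, by group, under 3 denominators. Symbols are replicates, lines are means and bars are SD (n = 3). By library total the means were 1.23, 1.55, 2.47 and 2.44%, and on TMM-scaled totals the steps after toxin were smaller, with day-21 replicate 3 highest at 2.60%.

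At day 5, none of the 79 genes passed the threshold with TMM scaling in the fit of all 12 libraries, although most lay above control. Fold changes are log2 with the standard error of edgeR's quasi-likelihood fit, p-values are Benjamini-Hochberg adjusted over all 19821 genes tested, and called means an adjusted p under 0.05. Of all genes tested, 9.77% were called higher and 5.09% lower. Of the 79, 0 were called, 10 passed an unadjusted p under 0.05 and all 10 of these lay higher. DESeq2 called 3 (10.9% of all genes higher and 8.41% lower) and limma-voom 1 (8.8% and 5.32%), all higher. Other scalings also called 0: median-of-ratios factors (8.75% of all genes higher and 5.99% lower), library totals (9.69% and 2.78%) and totals without mitochondrial counts (9.62% and 3.9%). They left 5, 15 and 12 higher and 0 lower at an unadjusted p under 0.05. By library totals the family's median was 0.34 and that of all genes 0.15. The distance of the family's median from that of all genes was 0.20 under each of the 4 scalings. A change of scaling shifts all genes nearly alike, so this distance could hardly move. The median log2 fold change was 0.20, against 0.00 over all genes, and 77 of the 79 were above 0. In 55 genes all 3 day-5 levels lay above all 3 controls, and in 0 below, against 25.2% and 23.7% of all genes. A fit of only the 6 libraries compared called 45 higher, with 19.3% of all genes higher and 19.1% lower. Leaving out day-21 replicate 2, which is not among those libraries, gave 17 called higher with 17.4% of all genes higher and 14.9% lower, and leaving out day-21 replicate 3 gave 4 (11% and 6.51%) and replicate 1 gave 1 (10.9% and 6.16%).

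The highest fold changes at day 5 were those of Rpl17, Rpl12 and Rps27a. Rpl17 turned direction when the counts of rows named as its pseudogenes, described below, were added. It then had 365, 390 and 369 CPM at day 5, below all controls at 402, 450 and 393 CPM. Rpl12 encodes a protein at the base of the stalk. Its TMM-scaled levels were 104, 109 and 103 CPM in controls and 156, 140 and 151 CPM at day 5, without overlap. The fold change was 0.50 ± 0.17 (edgeR adjusted p = 0.0764). Rps27a is made as a fusion of ubiquitin with the ribosomal protein. It had 92.3, 69.5 and 77.7 CPM in controls and 95.7, 132 and 107 CPM at day 5, and its fold change was 0.48 ± 0.32 (edgeR adjusted p = 0.351). The lowest were Rpl22 at -0.02 ± 0.12, Rpl36 at 0.00 ± 0.14 and Rpl35a at 0.05 ± 0.11. All 3 encode large-subunit proteins, and none of them was distinguishable from control.

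At day 14, 31 of the 79 genes were called higher and 1 lower with TMM scaling. Since 31.2% of all genes tested were called higher and 28.8% lower, the share called higher was close to the background and the share called lower was below it. The median log2 fold change was 0.27, against 0.08 over all genes, and 59 genes lay above and 3 below the controls without overlap, against 38.6% and 34.3% of all genes. Small-subunit genes made up 17 of the 31, with a median of 0.31. Large-subunit genes made up 12, with a median of 0.23, and the stalk genes Rplp1 and Rplp2 made up the rest. The difference between subunits was not tested.

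The scaling decided how many genes passed at day 14. By library totals 78 rose and 0 fell, with 66.4% of all genes higher and 11.2% lower. The median was then 1.00 for the family and 0.80 for all genes. With totals lacking mitochondrial counts 75 rose and 0 fell, with medians of 0.76 and 0.57, and 56.2% of all genes were higher and 14.9% lower. With median-of-ratios factors 26 rose and 1 fell (29.5% and 30.1% of all genes), with medians of 0.23 and 0.04. A change of scaling shifts all genes together: under these 4 scalings the family's median lay 0.19 above that of all genes, as near as 2 decimals show, and 26 genes were called higher under all 4.

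With TMM scaling the count at day 14 also moved with single libraries. It was 9 higher without control replicate 1 (26% of all genes higher and 26.9% lower), 19 without control replicate 2 (25.4% and 26.8%) and 19 without control replicate 3 (24.9% and 26.4%). It was 20 without day-14 replicate 1 (27.5% and 25.3%) and 16 without day-14 replicate 3 (26.7% and 24.9%). In each of these 5 fits 1 gene was lower. A fit of the 6 libraries compared called 53 higher and 2 lower (35.1% and 34.0% of all genes), and without day-21 replicate 2 the count was 46 higher and 1 lower (34.7% and 30.9%). Without either of day-21 replicates 2 and 3 in turn, all 31 genes were called again.

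**Figure D2:**
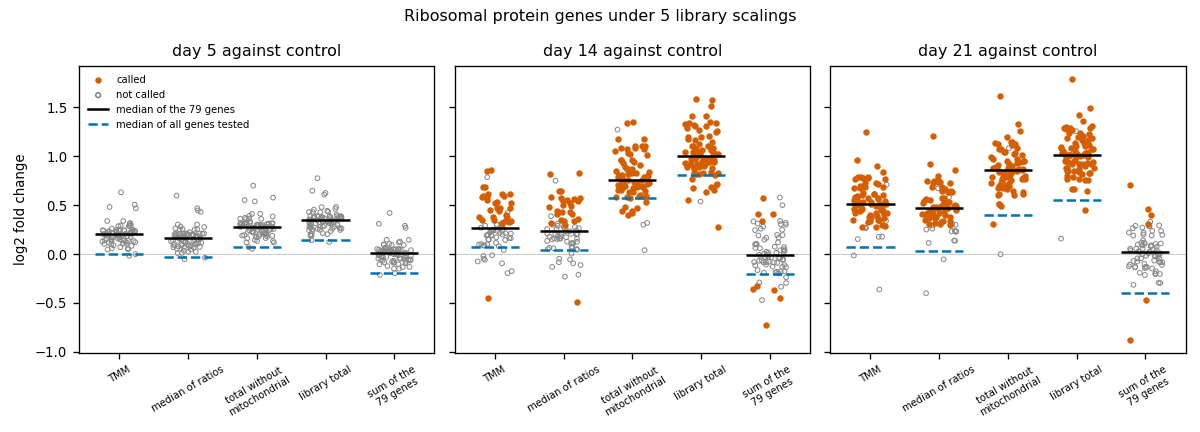
Log2 fold change (vertical axis) of each of the 79 genes against control at day 5, 14 and 21 under 5 library scalings. Filled points were called at an adjusted p under 0.05, black lines are the median of the 79 genes and dashed blue lines that of all genes tested. At day 14 the family's median moved from 0.27 with TMM to 1.00 by library total, and the median of all genes moved from 0.08 to 0.80.

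Rps28 was among the clearest of the genes that rose. It encodes a small-subunit protein near the channel through which the mRNA leaves, and lies on chromosome 17 at 34038001 to 34043536 of GRCm39 (identifier ENSMUSG00000067288). Controls had 111, 128 and 126 CPM, and day 5 had 153, 157 and 137 CPM. Day 14 had 165, 170 and 191 CPM, and day 21 had 195, 195 and 241 CPM. Levels of the 4 groups did not overlap. The fold change was 0.53 ± 0.12 at day 14 (edgeR adjusted p = 0.00264) and 0.79 ± 0.12 at day 21 (edgeR adjusted p = 0.00122). By library totals it was 1.25 ± 0.17 and 1.28 ± 0.17 on these days, so its position above control held while the step from day 14 to day 21 went from 0.26 with TMM to 0.03.

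Rpl12 rose by the second largest fold change at day 14. It lies on chromosome 2 at 32851571 to 32855357 of GRCm39. Day 14 had 188, 188 and 193 CPM, above all controls and all day-5 libraries. Day 21 had 208, 143 and 264 CPM, and replicate 2 lay within the range of day 5. The fold change was 0.85 ± 0.17 at day 14 (edgeR adjusted p = 0.0017) and 0.96 ± 0.17 at day 21 (edgeR adjusted p = 0.00297). Rps27a rose by 0.86 ± 0.32 at day 14 (edgeR adjusted p = 0.035), with 157, 98.4 and 181 CPM. Replicate 2 at day 14 was close to the highest control, at 92.3 CPM. Rpl17 lay highest after them at 0.79 ± 0.52 and was not called (edgeR adjusted p = 0.215).

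Rps27l fell at day 14, alone of the 79 genes under TMM scaling, and lay above control by library totals. It is a paralog of Rps27 that the tumour suppressor p53 induces in human cells, and it lies on chromosome 9 at 66853368 to 66856798 of GRCm39. Controls had 100, 102 and 110 CPM, and day 5 had 119, 116 and 109 CPM. Day 14 had 74.5, 75.5 and 78.8 CPM, and day 21 had 96.4, 114 and 99.8 CPM. Day 14 lay below all other libraries. The fold change was -0.45 ± 0.09 against control (edgeR adjusted p = 0.00111) and -0.59 ± 0.09 against day 5 (edgeR adjusted p = 0.000512). Rps27 itself went the other way on this scale, with 262, 274 and 292 CPM at day 14 against 212, 228 and 226 CPM in controls (0.31 ± 0.11, edgeR adjusted p = 0.0305).

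The direction of Rps27l against control rested on the scaling. With median-of-ratios factors it was -0.49 ± 0.09, by library totals it was 0.28 ± 0.09 (edgeR adjusted p = 0.0188), and without mitochondrial counts it was 0.04 ± 0.08 (edgeR adjusted p = 0.658). All genes together had a median of 0.80 by library totals, so Rps27l lay below that median under each of these scalings. The other genes lowest at day 14 were Rpl7a at -0.20 ± 0.25 (edgeR adjusted p = 0.51) and Rpl29 at -0.17 ± 0.11 (edgeR adjusted p = 0.185). Neither was called against control.

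At day 21, 70 of the 79 genes were called higher and 0 lower with TMM scaling, where 24.3% of all genes tested were higher and 18.5% lower. At an unadjusted p under 0.05, 72 lay higher and 0 lower. DESeq2 called 70 higher (23.8% of all genes higher and 22.5% lower) and limma-voom 69 (21.7% and 21.5%), with 0 lower in each. The median log2 fold change was 0.51, against 0.07 over all genes. Levels of 73 genes lay above all controls without overlap, and 0 below, against 24.3% and 20.9% of all genes. By subunit, 37 of 44 large-subunit genes, 30 of 32 small-subunit genes and all 3 stalk genes rose. All 31 genes that rose at day 14 also rose at day 21, in comparisons that share their controls. Median-of-ratios factors gave 62 higher (22.4% of all genes), library totals 77 (55.7%) and totals without mitochondrial counts 77 (46.2%), each with 0 lower beside 20.7, 7.39 and 9.42% of all genes. Their family medians were 0.47, 1.01 and 0.86, against 0.03, 0.55 and 0.40 over all genes. The distance of the family's median from that of all genes was 0.44 to 0.46 over the 4 scalings, and under all 4 of them 62 genes were called higher.

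The day-21 libraries differed among themselves. Replicate 3 was the highest of all 12 libraries for 75 of the 79 genes, and replicate 2 was the lowest of the 3 day-21 libraries for 65. The median SD of log2 levels within a group was 0.26 at day 21, against 0.06 in controls and 0.08 and 0.07 at days 5 and 14. A fit of only the 6 libraries compared called 3 genes (7.01% of all genes higher and 1.88% lower), with 52 at an unadjusted p under 0.05. The same fit with replicate 2 also left out called 68 (28.7% and 27.7%). In the fit of all groups, 74 were called without day-21 replicate 2 (33.2% and 28.4%), and 45 higher and 1 lower without replicate 3 (15.1% and 8.92%). Without control replicate 1, 2 or 3 the count was 36, 38 or 40 higher and 0 lower, with 17.1, 15.2 or 14.3% of all genes higher and 13, 12.5 or 11.2% lower.

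Other measures moved with these libraries. The summed level of 10 proximal tubule markers was 3032, 26159 and 2304 CPM in day-21 replicates 1, 2 and 3. Controls had 40507 to 48687 CPM, the day-5 libraries 28981 to 31993 and the day-14 libraries 2442 to 2483. The 10 macrophage and monocyte markers summed to 86.3 to 114 CPM without toxin and to 102 to 113 and 914 to 950 on days 5 and 14, and to 520, 266 and 432 in the day-21 replicates. The 10 cell cycle markers summed to 83.8 to 96.7 CPM without toxin and to 290 to 451, 155 to 161 and 114 to 134 CPM on the 3 days. Tubular injury markers, 5 genes, summed to 666 to 782 CPM without toxin, 5005 to 7855 at day 5, 18217 to 20356 at day 14 and 14234, 5343 and 13253 in the day-21 replicates. The 5 fibroblast and pericyte markers summed to 105 to 162, 228 to 349 and 838 to 862 CPM in the first 3 groups and to 750, 270 and 517 in the day-21 replicates. The 4 collecting duct markers summed to 358, 356 and 519 CPM in those replicates and to at most 312 CPM in any other library. Day-21 replicate 2, with the lowest ribosomal protein share of its group, was thus highest in proximal tubule markers and lowest in injury, fibroblast and macrophage markers. Replicate 3, with the highest share, lay highest in collecting duct markers and between the others in injury, fibroblast and macrophage markers. The cell cycle sum was highest at day 5. The family's share of library totals was then 1.26 times the control mean, against 2.01 and 1.99 on days 14 and 21. Fits of only the libraries compared called fewer genes of the family at day 21 than at day 5. The part of cell division or of cell composition in the ribosomal protein levels was not tested. Markers of red blood cells, which lose their ribosomes as they mature, summed to 833 to 1596 CPM without toxin and to 691 to 890, 16.7 to 146 and 28.6 to 881 CPM on the 3 days. Of the 4 striated muscle markers the sum was at most 43.9 CPM, in a day-14 library, and it was at most 0.266 CPM in the other groups. The 3 testis markers summed to at most 0.0660 CPM in any library.

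**Figure D3:**
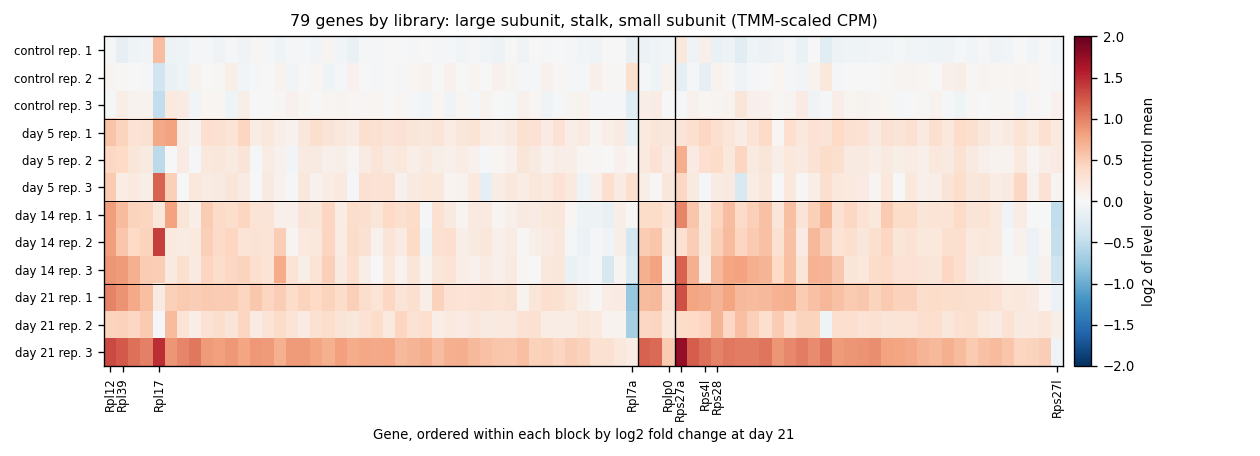
Log2 of the TMM-scaled level over the control mean (colour) for each of the 79 genes (horizontal axis, in the order large subunit, stalk, small subunit; 9 genes are labelled) and each of 12 libraries (vertical axis). Day-21 replicate 3 was the highest library for 75 genes, and Rpl17 stands out by its spread within every group.

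The genes that rose most at day 21, before any pseudogene rows were added, were Rps27a, Rpl12 and Rpl39. Rps27a had 193, 102 and 271 CPM, and rose by 1.24 ± 0.32 (edgeR adjusted p = 0.0124). All 3 libraries lay above the controls, although replicate 2 was close to the highest of them. Rpl39 encodes a protein that lines the tunnel of the nascent chain. Controls had 105, 120 and 130 CPM, followed by 184, 173 and 212 CPM at day 14 and 221, 164 and 278 CPM at day 21. It rose by 0.68 ± 0.18 at day 14 (edgeR adjusted p = 0.00672) and by 0.90 ± 0.18 at day 21 (edgeR adjusted p = 0.00425).

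The 9 genes not called at day 21 were Rpl4, Rpl7a, Rpl17, Rpl26, Rpl28, Rpl29, Rpl35a, Rps2 and Rps27l. Rpl4, another tunnel protein and among the most abundant members, had 451, 458 and 439 CPM in controls and 506, 472 and 521 CPM at day 21. Its groups did not overlap, but the difference of 0.15 ± 0.09 did not pass (edgeR adjusted p = 0.206). Rps2, a protein at the mRNA entry of the small subunit, had 444, 449 and 451 CPM in controls and 460, 526 and 629 CPM at day 21 (0.27 ± 0.12, edgeR adjusted p = 0.103). Rps27l was at -0.02 ± 0.09 (edgeR adjusted p = 0.895), and by library totals at 0.45 ± 0.09 (edgeR adjusted p = 0.00309). Rpl7a lay lowest, at -0.36 ± 0.25 (edgeR adjusted p = 0.248).

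By role, the stalk genes differed in size of change. Rplp0, the most abundant of the 79 genes by mean level, had 525, 569 and 539 CPM without toxin. It had 635, 612 and 638 CPM at day 5, 658, 627 and 585 CPM at day 14, and 661, 633 and 785 CPM at day 21. Toxin libraries lay above all controls, and the 3 days overlapped each other. It rose at day 21 by 0.35 ± 0.12 (edgeR adjusted p = 0.0326). Rplp1 had 207, 204 and 242 CPM in controls, 280, 319 and 381 at day 14 and 340, 293 and 480 at day 21. Both days lay above the controls, with a rise of 0.58 ± 0.18 (edgeR adjusted p = 0.0179) and of 0.77 ± 0.18 (edgeR adjusted p = 0.00971). Rplp2, its partner in the stalk, rose by 0.54 ± 0.17 (edgeR adjusted p = 0.0195) and 0.77 ± 0.17 (edgeR adjusted p = 0.00709).

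Rpl5 and Rpl11 bind the small RNA of the 5S particle and, outside the ribosome, the p53 regulator MDM2. Rpl5 had 326, 377 and 365 CPM in controls and 455, 457 and 448 CPM at day 14, without overlap, and rose by 0.35 ± 0.13 (edgeR adjusted p = 0.0427). At day 21 it rose by 0.49 ± 0.13 (edgeR adjusted p = 0.0155). Rpl11 had 173, 185 and 182 CPM in controls and 214, 208 and 218 CPM at day 14. These groups did not overlap either, but the difference of 0.24 ± 0.13 did not pass (edgeR adjusted p = 0.119). At day 21 Rpl11 rose by 0.51 ± 0.13 (edgeR adjusted p = 0.0108).

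Rps6 is the substrate of the S6 kinases downstream of mTOR. It had 251, 269 and 257 CPM in controls, 311, 300 and 279 at day 14 and 323, 301 and 388 at day 21. All toxin libraries lay above the controls. It rose at day 21 by 0.38 ± 0.11 (edgeR adjusted p = 0.0214), and at day 14 the difference was 0.20 ± 0.11 (edgeR adjusted p = 0.15). Rpsa, a small-subunit protein also known as a laminin receptor precursor, rose by 0.34 ± 0.13 at day 14 (edgeR adjusted p = 0.043) and by 0.44 ± 0.13 at day 21 (edgeR adjusted p = 0.0208).

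The paralogs moved unevenly. Rps4l, on chromosome 6 at 148256154 to 148257096 of GRCm39, had 10.7, 8.92 and 10.3 CPM in controls, 11.7, 11.7 and 11.2 at day 14 and 16.9, 13.4 and 21.5 at day 21. Day 21 lay above all other libraries. It rose by 0.79 ± 0.17 against control (edgeR adjusted p = 0.00592) and by 0.58 ± 0.17 against day 14 (edgeR adjusted p = 0.0414). Rpl6l, on chromosome 10 at 110961712 to 110962582 of GRCm39, had 15.5, 17.3 and 16.8 CPM in controls. It had 17.8, 23.3 and 27.8 CPM at day 14 and 23.3, 21.4 and 27.1 CPM at day 21. It rose by 0.47 ± 0.14 at day 14 (edgeR adjusted p = 0.0149) and by 0.53 ± 0.14 at day 21 (edgeR adjusted p = 0.0151). These near copies may take reads from Rps4x and Rpl6, since how reads with several matches were counted was not stated.

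Between the days, few ribosomal protein genes changed with TMM scaling. From day 5 to day 14, 4 rose (Rpl23, Rps16 and Rps24 among them) and 2 fell (Rps27l and Rpl29), against 24.7% and 26.1% of all genes. Rps16, a small-subunit protein whose tail reaches the peptidyl site, had 203, 200 and 194 CPM at day 5 and 263, 266 and 298 CPM at day 14. The groups did not overlap, and it rose by 0.47 ± 0.14 (edgeR adjusted p = 0.0179). Rpl29 had 140, 128 and 161 CPM at day 5 and 114, 121 and 102 CPM at day 14, and fell by 0.34 ± 0.11 (edgeR adjusted p = 0.0216). Levels of 29 genes lay above and of 11 below day 5 without overlap, against 35.4% and 35.5% of all genes. By library totals 69 rose from day 5 to day 14 and 0 fell (58.2% and 9.42% of all genes), with a median of 0.67 against 0.62 over all genes, and without mitochondrial counts 57 rose and 0 fell (49.3% and 12.3%). DESeq2 called 7 higher and 3 lower (25.7% and 26.8%). The 6 libraries alone gave 27 higher and 9 lower (33.6% and 33.7%), and without day-21 replicate 2 or 3 the counts were 19 and 5 (29.5% and 30.1%) or 14 and 4 (25.6% and 27.1%). Without any 1 of the other libraries, at most 2 rose and at most 2 fell.

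From day 14 to day 21, 6 genes rose (Rpl35a, Rps4l, Rps25, Rps27 and Rps27l among them) and 0 fell, against 7.03% and 7.57% of all genes. At an unadjusted p under 0.05, 23 lay higher and 0 lower, and DESeq2 called 13 higher (10.8% of all genes higher and 10.6% lower) and limma-voom 8 (6.02% and 8.98%), with 0 lower in each. The median was 0.23, against 0.03 over all genes, and 25 genes lay above day 14 without overlap, with 0 below (14.8% and 17.7% of all genes). Median-of-ratios factors called 6 higher and 0 lower (6.76% and 7.73%). By library totals 0 genes were called (2.58% and 13.7%), 0 passed an unadjusted p under 0.05 and the median was 0.00, against -0.22 over all genes. Without mitochondrial counts 1 was called higher (3.71% and 12.0%). Rps27l had the lowest p of the 6 and rose by 0.44 ± 0.09 (edgeR adjusted p = 0.01), with day-21 levels of 96.4 to 114 CPM. The count was 45 without day-21 replicate 2 (12.5% of all genes higher and 11.4% lower), 14 without day-21 replicate 1 (12.8% and 11%), and 0 to 2 without any other 1 library. A fit of the 6 libraries alone called 0 at an adjusted p (0.293% and 1.08% of all genes), with 9 higher at an unadjusted p under 0.05, and 10 once day-21 replicate 2 was also left out (7.31% and 8.29%).

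Scaled to the sum of the 79 genes, few members were called. This scaling asks which genes moved against the family. At day 5 and from day 14 to day 21, 0 were called by edgeR, with 1 gene higher and 0 lower at an unadjusted p under 0.05 in each. Of all genes 5.02% were higher and 6.35% lower at day 5, and 1.34% and 11.7% from day 14 to day 21. At day 14, Rpl12, Rps16, Rps20 and Rpl39 were higher, by 0.57, 0.40, 0.34 and 0.41. Rps27l, Rpl29, Rpl35a, Rps25 and Rpl24 were lower, at -0.73, -0.45, -0.37, -0.35 and -0.32. Of all genes tested, 20.2% were called higher and 36.0% lower on this scaling. At day 21, Rps27a, Rpl12, Rpl39 and Rps28 were higher, by 0.71, 0.46, 0.40 and 0.31, and Rpl7a and Rps27l were lower, at -0.88 and -0.47 (10.6% and 45.0% of all genes). Rows named as pseudogenes held 109% of Rpl7a's own counts and 52.1% of those of Rps27a, and were not added here. With them added, Rpl7a lay near control at day 21 with TMM scaling. From day 5 to day 14, Rps16 was higher and Rps27l and Rpl29 were lower, by 0.39, -0.68 and -0.43 (19.8% and 22.9%). Rpl12 and Rpl39 were higher, and Rps27l lower, than the family at both day 14 and day 21.

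Mouse ribosomal protein genes have many processed pseudogenes, copies of the mRNA in the genome, and 63 of the 79 genes had rows named as their pseudogenes, 320 rows in all. Those of Rpl17 held 187953 counts in 11 rows, 510% of the gene's own 36887 counts. Those of Rps12 held 228%, those of Rpl21 190% and those of Rpl7a 109%. The level of Rpl17, which lies on chromosome 18 at 75131629 to 75136452 of GRCm39, was 81.8, 40.7 and 37.8 CPM in controls and 90.0, 37.3 and 121 CPM at day 5. At day 14 it was 62.7, 139 and 75.0 CPM, and at day 21 it was 60.8, 52.4 and 149 CPM. The spread within each group exceeded the difference between groups.

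With the pseudogene rows added, an alternative chosen after seeing the data, the spread of Rpl17 fell. Its levels became 402, 450 and 393 CPM without toxin and 365, 390 and 369 CPM at day 5. They were 487, 503 and 703 CPM at day 14, and 616, 534 and 624 CPM at day 21. The SD of its log2 levels in controls went from 0.62 to 0.11, and that of Rpl7a from 0.30 to 0.012. Over the 79 genes the median SD in controls moved little, from 0.060 to 0.058. The spread did not fall throughout. The SD of Rps12 fell in controls, from 0.22 to 0.045, and rose at day 14, from 0.11 to 0.21. At day 14 that of Rps13 rose from 0.083 to 0.23. Summed, Rpl17 rose by 0.45 ± 0.15 at day 14 (edgeR adjusted p = 0.0231) and by 0.52 ± 0.15 at day 21 (edgeR adjusted p = 0.0198). Rpl7a moved from -0.36 ± 0.25 to 0.07 ± 0.10 at day 21 (edgeR adjusted p = 0.571), and of the 79 genes only Rps27l lay lower in this fit, at -0.01. At day 21 the highest of the 79 were then Rps12 at 0.98, Rpl12 at 0.97 and Rpl39 at 0.91, where Rps12, a small-subunit gene, had risen by 0.62 ± 0.23 on its own counts (edgeR adjusted p = 0.0461). Rps27a was called higher but by less, at 0.42 ± 0.17 (edgeR adjusted p = 0.0487) at day 14 and 0.76 ± 0.17 (edgeR adjusted p = 0.00648) at day 21. For the whole family the counts moved little, from 31 to 36 higher at day 14 (31.5% of all genes higher and 28.8% lower) and from 70 to 71 at day 21 (24.4% and 18.5%). From day 5 to day 14 they were 7 higher and 2 lower (25% and 26.1%).

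**Figure D4:**
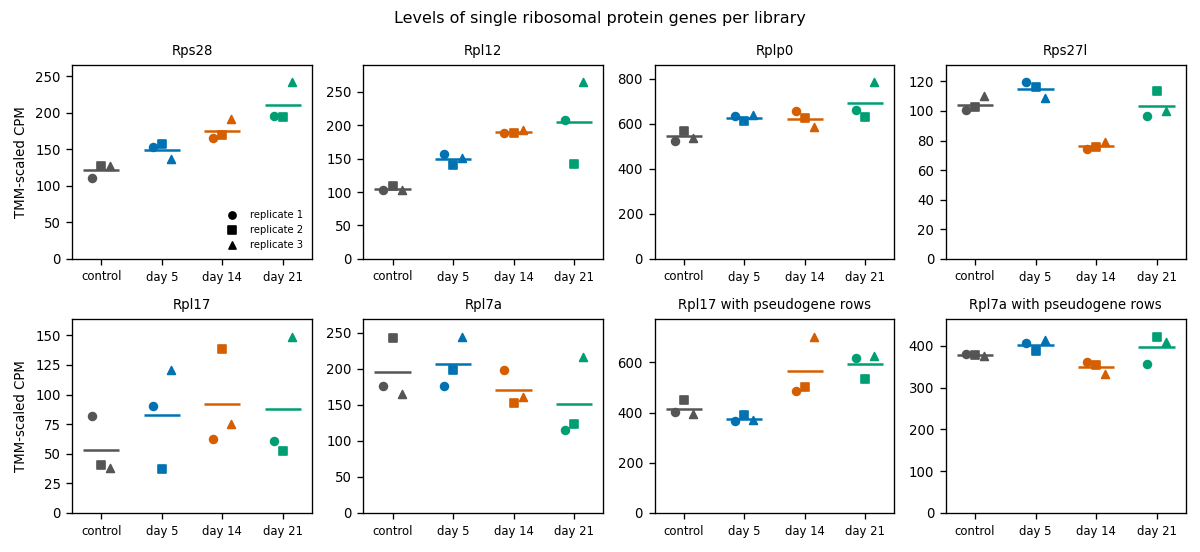
TMM-scaled level in CPM (vertical axes, each from 0) of 6 genes in each of the 12 libraries by group, with Rpl17 and Rpl7a also shown after adding the counts of their pseudogene rows. Symbols are replicates and lines are group means. Rps28 rises from 111 to 128 CPM in controls to 195 to 241 CPM at day 21, Rps27l is lowest at day 14 on this scale, and Rpl17 spreads from 37.8 to 81.8 CPM within the controls.

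Genes that act with the family were counted in the same fit, and differences between lists were not tested. Of 40 ribosome assembly factors, 21 were called higher and 0 lower at day 5, against 9.77% and 5.09% of all genes, with a median of 0.32. Gnl3, the nucleolar protein nucleostemin, rose by 0.82 ± 0.12 (edgeR adjusted p = 0.00128). Nop56, a core protein of the particles that methylate ribosomal RNA, had 17.9, 19.4 and 16.9 CPM in controls and 34.6, 30.7 and 34.5 CPM at day 5, without overlap, and rose by 0.88 ± 0.14 (edgeR adjusted p = 0.00191). At day 14, 17 rose and 3 fell (31.2% and 28.8% of all genes), with a median of 0.14. At day 21, 6 rose and 2 fell (24.3% and 18.5%), with a median of 0.12, so the share that rose was below that of all genes. Tsr1, which matures the small subunit, rose by 0.70 ± 0.10 at day 14 (edgeR adjusted p = 0.000185), and Nhp2, of the pseudouridylation particles, fell by 0.74 ± 0.12 (edgeR adjusted p = 0.000384). From day 5 to day 14, 2 rose and 11 fell (24.7% and 26.1% of all genes), among them Utp20, which fell by 1.43 ± 0.12 (edgeR adjusted p = 3.09e-05). From day 14 to day 21, 0 rose and 3 fell (7.03% and 7.57%). By library totals the counts against control were 18, 38 and 37 higher with 0 lower, beside 9.69, 66.4 and 55.7% of all genes higher, so the falls at day 14 and day 21 depended on the scaling.

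Of 21 further mRNAs of the TOP class, mostly translation factors, 3 rose and 0 fell at day 5, 8 rose and 1 fell at day 14, and 7 rose and 1 fell at day 21. Of all genes 9.77, 31.2 and 24.3% were higher on these days and 5.09, 28.8 and 18.5% lower, so the shares that rose were not far from those of all genes. Their medians were 0.06, 0.06 and 0.14. From day 5 to day 14, 2 rose and 3 fell (24.7% and 26.1% of all genes). From day 14 to day 21 edgeR called 0 of the 21 (7.03% and 7.57%), with 3 higher and 2 lower at an unadjusted p under 0.05. Npm1, a nucleolar chaperone, had 169, 166 and 163 CPM in controls and 255, 250 and 248 CPM at day 5, and rose by 0.60 ± 0.10 (edgeR adjusted p = 0.00212). Hnrnpa1, an RNA-binding protein, rose by 0.64 ± 0.08 at day 5 (edgeR adjusted p = 0.000651) and by 0.54 ± 0.08 at day 14 (edgeR adjusted p = 0.000362). Vim, the intermediate filament of mesenchymal cells, rose by 2.89 ± 0.35 at day 14 (edgeR adjusted p = 8.02e-05). By library totals all 21 rose at day 14, as did 66.4% of all genes.

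The 6 relatives outside the name rule, of which Rack1 and Fau are also among the 21 TOP mRNAs, did not all move one way. Rack1, a scaffold on the small subunit, rose by 0.47 ± 0.12 at day 14 (edgeR adjusted p = 0.00787) and by 0.53 ± 0.12 at day 21 (edgeR adjusted p = 0.00868). Fau, which encodes a ubiquitin-like protein fused to a small-subunit protein, rose at day 21 by 0.45 ± 0.13 (edgeR adjusted p = 0.0187). Rpl36al, a paralog of Rpl36a, fell at day 14 by 0.33 ± 0.12 (edgeR adjusted p = 0.0312), while Rpl36a rose by 0.52 ± 0.15 (edgeR adjusted p = 0.0127). By library totals all 6, with Rpl22l1 and Rpl7l1, were called higher at day 14 (66.4% of all genes), so the fall of Rpl36al turned direction. Rpl22l1, a paralog of Rpl22, rose by 0.82 ± 0.23 at day 21 (edgeR adjusted p = 0.0176).

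Of 21 regulators of ribosome production and TOP translation, 5 rose and 0 fell at day 5, 6 rose and 7 fell at day 14, and 5 rose and 4 fell at day 21. Of all genes 9.77, 31.2 and 24.3% were higher and 5.09, 28.8 and 18.5% lower, so at days 14 and 21 the list's shares were near those of all genes. Myc, a transcription factor that drives ribosome production, had 2.31, 2.56 and 4.69 CPM without toxin and 18.7, 15.8 and 14.9 CPM at day 5. It had 29.2, 29.3 and 32.2 CPM at day 14, and 16.7, 7.86 and 24.2 CPM at day 21. All toxin libraries lay above the controls. It rose by 2.37 ± 0.37 at day 5 (edgeR adjusted p = 0.0018), 3.25 ± 0.38 at day 14 (edgeR adjusted p = 6.71e-05) and 2.35 ± 0.37 at day 21 (edgeR adjusted p = 0.00155). Sesn2, a stress-induced inhibitor of mTOR complex signalling, rose at day 5 by 1.64 ± 0.14 (edgeR adjusted p = 7.14e-05). Mtor had 242, 180 and 239 CPM in controls, 65.1, 59.1 and 60.3 at day 14 and 66.8, 123 and 47.1 at day 21. It fell by 1.84 ± 0.29 at day 14 (edgeR adjusted p = 0.000339) and by 1.48 ± 0.28 at day 21 (edgeR adjusted p = 0.00361). Without a stated strand setting, reads from genes that overlap Mtor cannot be told apart from its own. By library totals 17 of the 21 rose and 1 fell at day 14 (66.4% and 11.2% of all genes).

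The proteins of the mitochondrial ribosome, which serve the mitochondrial genome, went the other way from the cytosolic family at day 14 with TMM scaling, and had a median near 0 by library totals. Of 77 such genes none was called at day 5 by edgeR (9.77% of all genes higher and 5.09% lower), with 2 higher and 2 lower at an unadjusted p under 0.05. At day 14, 1 rose and 70 fell (31.2% and 28.8% of all genes), with a median of -0.74 beside 0.27 for the cytosolic family. At day 21, 2 rose and 29 fell (24.3% and 18.5%), with a median of -0.32. Mrpl2 fell by 0.96 ± 0.11 at day 14 (edgeR adjusted p = 6.34e-05) and Mrpl41 by 0.91 ± 0.11 (edgeR adjusted p = 7.96e-05). From day 5 to day 14, 0 rose and 70 fell (24.7% and 26.1%), and from day 14 to day 21, 28 rose and 0 fell (7.03% and 7.57%). By library totals the day-14 count was 16 higher and 10 lower (66.4% and 11.2%), with a median of -0.01 beside 1.00 for the cytosolic family and 0.80 for all genes. The mitochondrial family's position below the median of all genes at day 14 was therefore present on both scales, while its direction against control was not.

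**Figure D5:**
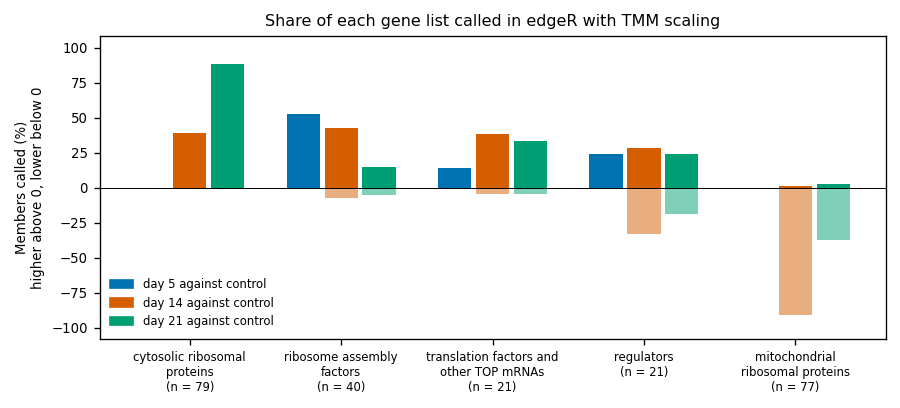
Percentage of each gene list called higher (above 0) or lower (below 0, paler) in edgeR with TMM scaling, against control at day 5, 14 and 21. The cytosolic family goes from 0 called at day 5 to 70 of 79 higher at day 21, assembly factors have 21 of 40 higher at day 5, and mitochondrial ribosomal proteins have 70 of 77 lower at day 14 (10 lower and 16 higher by library totals). All groups share an estimate of the spread in this fit. In fits of only the libraries compared, fewer genes of the cytosolic family were called at day 21 than at day 5.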

How the data were processed

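Whole-kidney poly(A) RNA-seq counts of 12 libraries (4 groups of 3) were used. Per the submitters' processing notes, the authors used fastp 0.20.0 and featureCounts on GRCm39 and deposited raw read counts per gene. The aligner, annotation release, strand setting and treatment of reads matching several genes were not given in the sources used here. All samples carry batch label 1. The ribosomal protein genes and all gene lists were chosen with earlier results of these data known. Nothing but the word biological in the series design says that replicates are separate mice, and p-values measure the spread between these samples.

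Genes kept by filterByExpr (19821 of 56722) were fitted with edgeR 4.0.16 (limma 3.58.1, R 4.3.3), with TMM scaling, 1 coefficient per group and quasi-likelihood tests. P-values were Benjamini-Hochberg adjusted over all genes tested, and genes with an adjusted p under 0.05 were called. The standard error of a fold change is its size divided by the root of F. In all, 5 comparisons were made. TMM-scaled CPM are counts per 1000000 of the scaled total. Totals of 31023852 to 46420299 counts set the depth, and reads carry no molecular identifiers. Replicates differed beyond sampling noise (lowest chi-square per degree of freedom 4.59, day-14 replicates 1 and 2). The fit was run on simulated data with the same spread in all groups, so that run does not test the wider spread at day 21.

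Named with values were, per comparison with control, the 3 highest and 3 lowest fold changes, the 3 most abundant genes, calls against the majority, the stalk, 5S, Rps6, Rpsa and paralog genes, and the 2 genes of each list with the lowest adjusted p, of which not every one is printed. Rps28, Rps16, Rps27, the genes called between days and those called on the family scaling were added after their values were seen. Of 23 regulator names, 21 had a row.

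Alternatives were median-of-ratios factors, library totals with and without mitochondrial counts, the sum of the 79 genes as library size, DESeq2 1.42.0, limma-voom, no filter, a CPM of at least 1 in 3 libraries, the replicate number as a block, only the libraries compared, and each library left out. Adding pseudogene rows, and leaving day-21 replicate 2 out of the fit of the libraries compared, were chosen after seeing the data. Numbers of replicates did not pair samples, since correlations of same-numbered deviations ran from -0.14 to 0.17. Promoter windows are from RefSeq (GRCm38.p6), matched by symbol. Python 3.11.15, pandas 2.3.3 and matplotlib 3.10.9 were also used. Single-gene results of a few genes are not reported here; these genes remain in the counts and sums.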

Additional observations from a re-analysis of the deposited data

Results flagged for a closer look

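Of the 79 genes, 6 differed between day 14 and day 5 by edgeR's test of that difference: among them, log2 changes were 0.28 for Rpl23, 0.47 for Rps16 and 0.37 for Rps24, and -0.59 for Rps27l and -0.34 for Rpl29. Likewise 6 differed between day 21 and day 14, among them 0.37 for Rpl35a, 0.58 for Rps4l, 0.35 for Rps25, 0.39 for Rps27 and 0.44 for Rps27l. Rps27l is the gene that appears in both sets, below day 5 at day 14 and above day 14 at day 21. Levels within groups of 3 were not searched for single deviating samples.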

How the results depend on the processing

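By library totals, and by totals without mitochondrial counts, 78 and 75 genes rose and 0 fell at day 14, 69 and 57 rose and 0 fell from day 5 to day 14, and 0 and 1 rose from day 14 to day 21. Scaled to the family's sum, 4 rose and 5 fell at day 14, 4 rose and 2 fell at day 21, 1 rose from day 5 to day 14 and 0 from day 14 to day 21. Fits of only the libraries compared gave 45 higher at day 5, 53 higher and 2 lower at day 14, 3 higher at day 21, 27 higher and 9 lower from day 5 to day 14, and 0 from day 14 to day 21 (10 without day-21 replicate 2). DESeq2 gave 3 higher at day 5, 7 from day 5 to day 14 and 13 from day 14 to day 21, and limma-voom gave 1 at day 5. Without a filter on low counts 1 rose from day 5 to day 14 and 2 from day 14 to day 21. With pseudogene rows 7 rose from day 5 to day 14. With the replicate block, 1 gene rose from day 14 to day 21 in place of 6, and the block moved no other of these counts by over 1.5 times. The numbers do not pair the samples.

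Leaving out single libraries gave 0 to 17 genes higher and 0 to 0 lower at day 5, 9 to 46 and 1 to 1 at day 14, 36 to 74 and 0 to 1 at day 21, 0 to 19 and 1 to 5 from day 5 to day 14, and 0 to 45 and 0 to 0 from day 14 to day 21. Shares of library totals moved from 1.21 to 1.24% in controls, 1.54 to 1.57% at day 5, 2.45 to 2.48% at day 14 and 2.05 to 2.83% at day 21. Without mitochondrial counts they were 1.59, 1.92 and 2.72% in controls, day 5 and day 14, and on TMM-scaled totals 1.55, 1.77 and 1.88%.

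Some genes changed sign. By library totals Rps27l was at 0.28 at day 14 and 0.45 at day 21, Rpl29 at 0.55 and Rpl35a at 0.63 at day 14, and from day 5 to day 14 Rpl29 was at 0.24, Rpl35a at 0.45, Rpl4 at 0.55 and Rplp0 at 0.57. Without mitochondrial counts Rps27l was at 0.039 and 0.31, Rpl35a at 0.40 at day 14, and from day 5 to day 14 Rpl29 was at 0.075, Rpl4 at 0.39 and Rplp0 at 0.41. Scaled to the family, at day 21 Rpl22 was at -0.11, Rplp0 at -0.13, Rps6 at -0.10 and Rpsa at -0.044. Of all values compared between settings, 18 were classed as reversed in direction and 2076 as the same. A further 140 were classed as weaker, no longer past the threshold, and 114 as stronger, newly past it. The remaining 109 were classed as moved, and these are not given here as single-gene values. The cause of these moves was not tested. Fits that leave libraries out differ both in the number of libraries and in which ones they hold.

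The lowest of the 79 genes held 5814 counts over the 12 libraries. The counts of calls moved with the libraries in the fit, those of day 21 among them, and with the scaling. Values of genes with many counts in pseudogene rows, among them Rpl17, Rpl7a, Rps12, Rpl21 and Rps27a, moved when those rows were added.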
